A study of Rattus norvegicus with 16 samples.

Results

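The cells described here were the disc cells of rat lumbar intervertebral discs (IVDs), and their gene expression was compared between punctured and uninjured discs of the same rat. They were all the cells that the authors' own annotation placed in its disc class, which it labels chondrocyte, and numbered 127077 of the 149272 cells in the 16 libraries. All 8 rats were male Sprague-Dawley animals, 8 weeks old at surgery, in which 2 lumbar discs each received a stab from a 27G needle. The 2 punctured discs of a rat (L4-5 and L5-6) were pooled into its LDP (lumbar disc puncture) library, and the 2 uninjured discs above them (L2-3 and L3-4) into its CON (control) library. Rats 1 to 4 were examined at 2 weeks and rats 5 to 8 at 8 weeks after surgery, which gave 8 pairs of libraries, each pair from a separate animal. The libraries of a pair were matched by the number in their titles, which was taken as the number of the rat. Every LDP disc lay lower in the spine than the CON discs of its rat, so puncture and lumbar level cannot be told apart in any value given here.

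The disc has a gelatinous nucleus pulposus (NP) rich in aggrecan and type II collagen, an inner annulus fibrosus (IAF) of intermediate character, and a lamellar outer annulus fibrosus (OAF) rich in type I collagen. Blood vessels reach only its outermost layers, and its cells live at low oxygen and draw much of their energy from glycolysis. Needle puncture through the annulus is a common model of disc degeneration, in which loss of matrix, proteases and inflammatory mediators are usually followed. Cells of the trunk also keep a code of Hox transcription factors that follows their position along the body axis, genes of higher group number being used further toward the tail.

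Libraries held between 1313 and 14252 disc cells, 59.1% to 96.7% of all their cells, at a median of 4226 to 9889 UMIs (unique molecular identifiers) per disc cell. The paper named this class by Acan, Col2a1, Sox9, Fmod and Comp, so their levels describe the class and do not test its name. Averaged over the 16 libraries, Acan stood at 2714 CPM (a gene's counts scaled to a fixed total per cell) in disc cells. Over the libraries that held them, it stood at 206 CPM in endothelial, 178 CPM in myeloid and 121 CPM in lymphoid cells. In cells without a class name it stood at 650 CPM. Col2a1, Sox9, Fmod and Comp were likewise highest in disc cells. Disc cells of the same rat's CON and LDP libraries shared between 0 and 34 cell barcodes, and the largest number shared between libraries of different rats was 56. The libraries that stood apart were LDP of rats 3 and 4 and CON of rat 6, in which lymphoid cells made up 18.8%, 11.7% and 20.5% of all cells, and LDP of rat 6, with the fewest disc cells and 28.3% of its cells without a class name. The share of disc cells differed by −3.68 points, LDP minus CON (higher in 4 of 8 pairs, two-sided exact sign-flip permutation test, p = 0.383). Their median UMIs were 996 more in LDP (6 of 8 pairs, exact p = 0.211). With 8 pairs, neither paired difference could be told from 0. Without each rat in turn the exact p for median UMIs ran from 0.0469 to 0.391. The share of UMIs from ribosomal genes was 1.65 points higher in LDP in 7 of 8 pairs (exact p = 0.0156; adjusted over 5 library measures, 0.0781).

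Of the genes tested, 870 differed between the disc cells of punctured and uninjured discs. For each gene the mean CPM over the disc cells of a library was taken, and the change was the LDP minus CON difference of log2(mean CPM + 1), averaged over the 2 times and given ± its standard error (SE, n = 8 pairs). Adding 1 CPM makes the changes of low genes smaller than the ratios of their CPM. Of 11150 genes tested, 232 (2.08%) were higher and 638 (5.72%) lower in LDP at an adjusted p under 0.05 (limma with Benjamini-Hochberg adjustment, as for every adjusted p below). Of these, 188 genes (1.69%) were higher and 452 (4.05%) lower in each of the 8 pairs as well, and these are the genes that the description leads with. Whatever the test, 400 genes (3.59%) were higher and 926 (8.3%) lower in all 8 pairs.

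The excess of lower genes depended on scaling. The median change of all genes tested was −0.12, and TMM scaling, which centers the bulk of genes, moved it by 0.10 to −0.02. After TMM 399 genes were higher and 368 lower, so that 52.0% of the calls were higher instead of 26.7%. Of the genes called at first, 228 of the 232 higher but 366 of the 638 lower were called again after TMM, and with the condition on all 8 pairs 184 of 188 and 274 of 452. Each change below may be read against −0.12, and a call lost after TMM is marked. The number of calls also depended on single animals: without rat 1 it was 83 higher and 146 lower, without rat 2 125 and 426, without rat 3 66 and 85, without rat 5 92 and 158, without rat 6 64 and 128, without rat 7 76 and 92, and without rat 8 126 and 327, whereas without rat 4 it was 232 and 555. Without rats 3 and 4 it was 40 and 39, and without rats 3, 4 and 6 it was 4 and 2, fewer pairs being tested in each case.

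**Figure D1:**
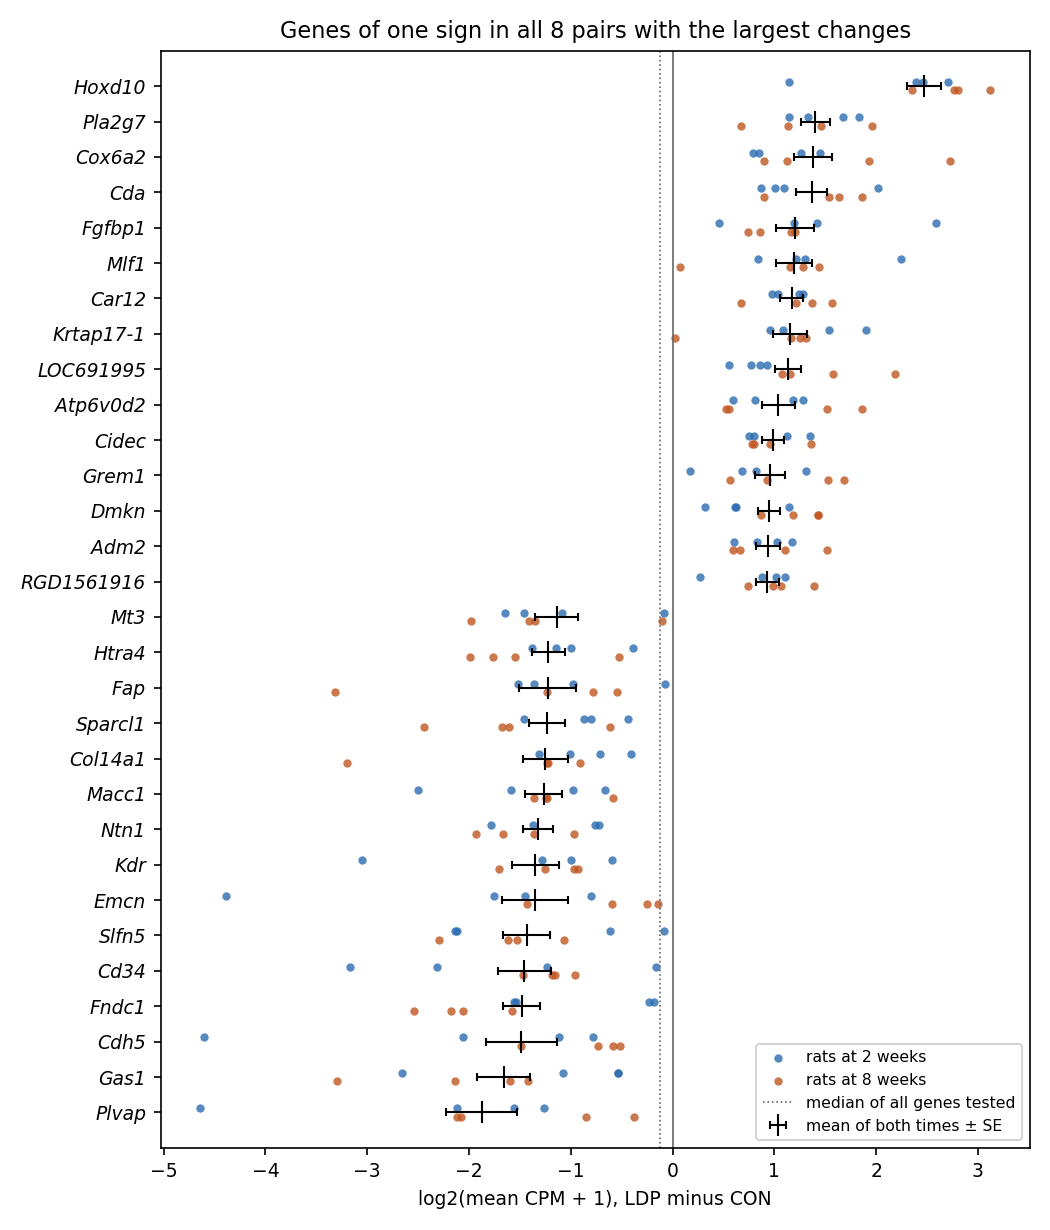
Change of log2(mean CPM + 1) between LDP and CON disc cells for the 15 genes with the largest increase and the 15 with the largest decrease among those called and of the same sign in all 8 pairs. Points are rats (blue, 2 weeks; orange, 8 weeks), black bars the mean of both times ± SE, and the dotted line the median of all genes tested (−0.12). Hoxd10 stands apart at 2.47, and the increases scatter less between rats than the decreases of Plvap, Cdh5 and Emcn.

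The gene that separated punctured from uninjured discs most clearly was Hoxd10, a transcription factor of the HoxD cluster. Its level in disc cells ran from 0.278 to 4.77 CPM over the CON libraries (median 0.676) and from 6.02 to 12.9 CPM over the LDP libraries (median 9.83). The groups did not overlap, and the highest CON library, that of rat 1, belonged to a rat whose LDP library stood at 11.7 CPM. Hoxd10 rose by 2.47 ± 0.17 on the log2 scale (adjusted p = 0.000254), and by 1.14 to 3.12 in single rats. In the other classes, averaged over the libraries that held them, it stood at 2.59 CPM in endothelial, 1.06 CPM in myeloid and 0.453 CPM in lymphoid cells. Genes in which every LDP library lay above every CON library numbered 13 (0.117% of genes tested), and those with every LDP library below every CON library 28 (0.251%).

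Its neighbor in the cluster, Hoxd9, ran from 12.8 to 23.7 CPM in CON (median 14.98) and from 20.9 to 35.7 CPM in LDP (median 29.5). Only the CON library of rat 1 reached into the range of the LDP libraries, and Hoxd9 rose by 0.87 ± 0.09 (adjusted p = 0.00322). Hoxc8, a gene of more anterior position, went the other way, from 19.1 to 51.2 CPM in CON (median 33.9) to between 8.26 and 18.8 CPM in LDP (median 15.7). Here too the groups did not overlap, and Hoxc8 fell by 1.12 ± 0.10 on the log2 scale (adjusted p = 0.00148). Hoxc6 was a low gene, at 3.598 to 6.74 CPM in CON (median 5.00) and 0.815 to 3.73 CPM in LDP (median 2.44). It fell by 0.89 ± 0.16 (adjusted p = 0.0172), in all 8 pairs although the groups overlapped, and missed the threshold without rat 6 (adjusted p = 0.0501).

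Of the 31 Hox genes of groups 4 to 13 looked up, 11 of groups 4 to 8 and 6 of groups 9 to 13 were present in the data of both conditions at both times. Of these, 12 were high enough to test. Among the 7 of groups 4 to 8, Hoxc6, Hoxb8 and Hoxc8 were lower and none was higher, and among the 5 of groups 9 to 13, Hoxd9 and Hoxd10 were higher and Hoxc9 lower, beside 2.08% of all genes called higher and 5.72% lower. The changes of Hoxb8 (−0.43, adjusted p = 0.0374) and Hoxc9 (−0.40, adjusted p = 0.0458) were of that sign in 7 of 8 pairs, each call held in only 1 of the 8 fits that leave out a rat, and that of Hoxc9 was lost after TMM. Hoxb4, Hoxc4, Hoxb7, Hoxd8, Hoxb9 and Hoxc10 did not pass, with changes from −0.29 for Hoxb4 to 0.08 for Hoxd8; the Hox genes not passing in all 8 pairs were picked for naming after their values were seen. Within the subclusters of the deposited annotation at 2 weeks, Hoxd10 and Hoxd9 were higher and Hoxc8 lower in LDP in 4 of 4 rats in each of the 3 subclusters, and Hoxc6 was lower in 3, 4 and 4 of the 4 rats. These 4 genes were named for one sign in all 8 pairs, which include these rats, so the signs are no separate evidence. Subcluster numbers also need not match between CON and LDP.

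**Figure D2:**
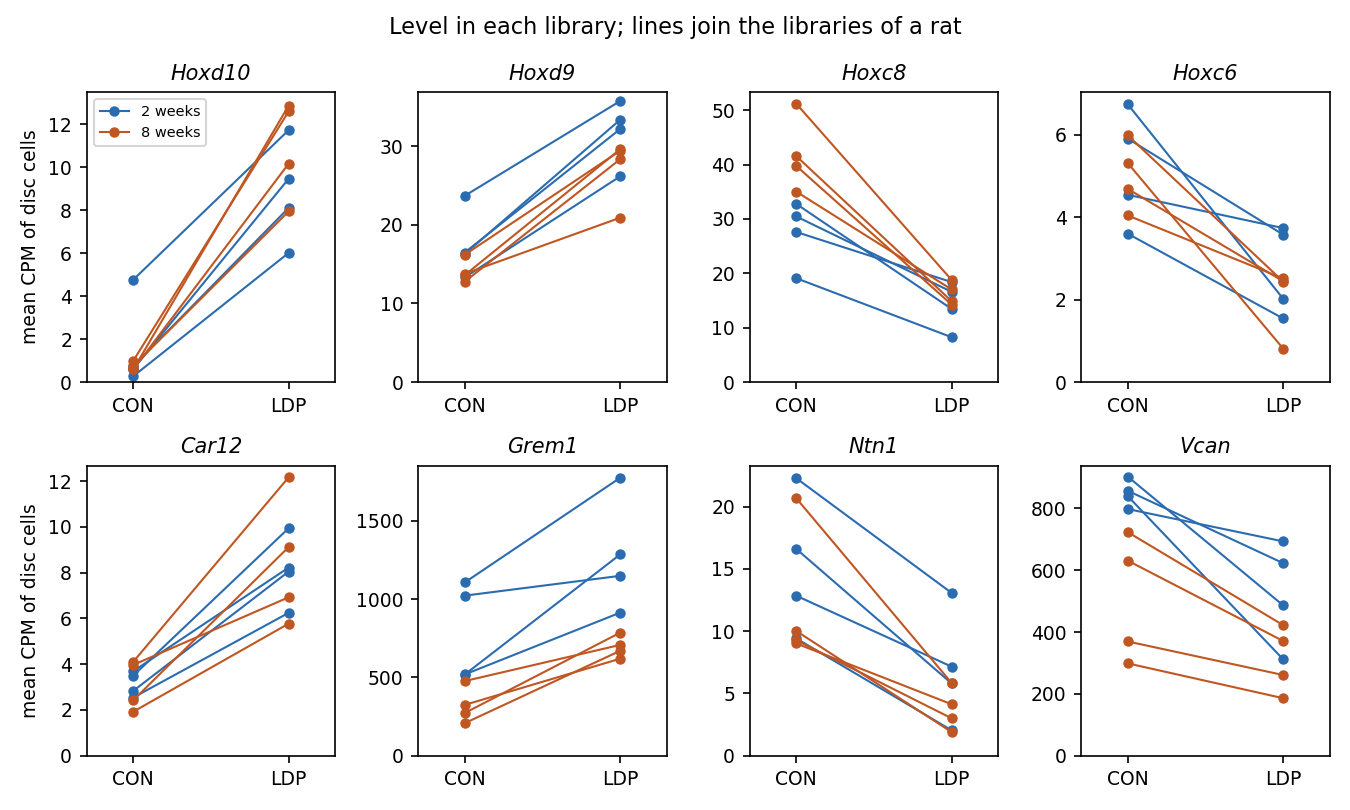
Mean CPM of disc cells in each library for 4 Hox genes and for Car12, Grem1, Ntn1 and Vcan; each line connects a rat's CON library with its LDP library (blue, 2 weeks; orange, 8 weeks), on linear axes that start at 0. Lines for Hoxd10, Hoxd9, Car12 and Grem1 rise in all 8 rats, and those for Hoxc8, Hoxc6, Ntn1 and Vcan fall in all 8.

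The other 14 genes with the largest increases included enzymes and secreted proteins, and no collagen or proteoglycan was among them. Pla2g7, the plasma form of platelet-activating factor acetylhydrolase, ran from 5.68 to 9.38 CPM in CON (median 8.42) and from 13.8 to 32.3 CPM in LDP (median 22.5), without overlap, and rose by 1.40 ± 0.14 (adjusted p = 0.00265). Car12, a membrane carbonic anhydrase known as an NP marker, ran from 1.92 to 4.11 CPM (median 3.17) in CON and from 5.77 to 12.2 CPM (median 8.14) in LDP. It too did not overlap, and rose by 1.17 ± 0.11 (adjusted p = 0.00187). Car12 was the only gene called higher of 13 notochordal and nucleus genes, and 1 was lower, beside 2.08% and 5.72% of all genes. The median of that list was 0.27, but below 0 in rats 7 and 8. None of 5 NP subcluster markers was called. Their summed level was lower in LDP in 5 of 8 pairs (−0.09 on the log2 scale, exact sign-flip p = 0.469). Atp6v0d2, a subunit of the vacuolar proton pump, was at 1.48 to 4.88 CPM in CON and 5.33 to 12.9 CPM in LDP and rose by 1.04 ± 0.16 (adjusted p = 0.0124). Grem1, the secreted BMP antagonist gremlin 1, was the most abundant of the 15, at 208 to 1107 CPM in CON (median 498) and 620 to 1776 CPM in LDP (median 850). It rose in every rat, by 0.96 ± 0.15 on average (adjusted p = 0.0108), but the groups overlapped, the 2-week libraries of either group lying above its 8-week libraries.

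The rest of the 15 rose by 0.93 (RGD1561916, listed in RefSeq under Spmip6) to 1.38 (Cox6a2). Cox6a2, the muscle-type form of a cytochrome c oxidase subunit, ran from 1.80 to 8.00 CPM in CON and from 4.02 to 32.9 CPM in LDP (adjusted p = 0.00696). The skeletal muscle markers in disc cells summed higher in LDP in 6 of 8 pairs (0.44 on the log2 scale, exact sign-flip p = 0.0938), with none of their 4 tested members called. The part of muscle RNA in the change of Cox6a2 was not tested. Cda, cytidine deaminase, rose by 1.37 ± 0.15, Fgfbp1, a carrier protein of fibroblast growth factors, by 1.20 ± 0.19, and Cidec, a lipid droplet protein, by 0.99 ± 0.11. Cidec was also on the list of adipocyte markers. Their summed level in disc cells was higher in LDP in 7 of 8 pairs, by 0.25 on the log2 scale (exact sign-flip p = 0.398). Rat 3 was the exception (−1.49), and without each rat in turn the value ran from 0.15 to 0.50 (exact sign-flip p from 0.0156 to 0.641). The part of adipocyte RNA in the change of Cidec was not tested. Adm2, a peptide of the calcitonin family, rose by 0.94 ± 0.12 and Dmkn, a secreted epithelial protein, by 0.95 ± 0.11. Mlf1, Krtap17-1 and LOC691995 completed the group, with increases of 1.19, 1.15 and 1.14. In 6 of the 15 genes no LDP library overlapped a CON library, all 15 kept their call without each rat in turn and after TMM, and 14 kept it without rats 3 and 4, the exception being Atp6v0d2 (adjusted p = 0.0624). By subcluster at 2 weeks, 14, 15 and 4 of them were higher in 4 of 4 rats in subclusters 1, 2 and 3, and 5, 15 and 9 of the 15 leading lower genes were lower. The genes had been chosen for one sign in these rats too, and subcluster numbers need not match between CON and LDP.

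Of the 15 genes with the largest decreases, 4 (Plvap, Cdh5, Emcn and Kdr) were among the endothelial markers. Plvap, a protein of endothelial fenestrae, ran from 0.732 to 50.8 CPM in CON (median 4.68) and from 0 to 3.56 CPM in LDP (median 0.399) and fell by 1.88 ± 0.35 on the log2 scale (adjusted p = 0.0184). Cdh5 (VE-cadherin) fell by 1.49 ± 0.35, Emcn (endomucin) by 1.35 ± 0.33, Kdr (a receptor of vascular endothelial growth factor) by 1.35 ± 0.23 and Cd34, a sialomucin of endothelial and progenitor cells, by 1.45 ± 0.26. All 5 were lower in all 8 pairs, but they differed when single rats were left out: Kdr kept its call without each rat, Cd34 lost it without rat 7 (adjusted p = 0.0536), Plvap without rats 6 and 7 (adjusted p = 0.0575 and 0.0563), and Cdh5 and Emcn without 5 and 6 of the rats. The highest levels were those of the CON library of rat 3, where Plvap stood at 50.8 CPM and 11.3% of disc cells had a UMI of at least 2 endothelial markers, against 0.745% to 3.97% in the other 15 libraries.

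The summed level of the 13 endothelial markers listed in disc cells ran from 42.0 to 273 CPM in CON (median 60.4) and from 25.98 to 67.3 CPM in LDP (median 41.5). It was lower in LDP in 8 of 8 pairs, by 0.79 on the log2 scale (two-sided exact sign-flip test, p = 0.0078125, the smallest that 8 pairs allow; adjusted over 13 marker lists, 0.102), and by 0.53 without rat 3. Eng was the most abundant of these markers. In rat 8 it made up 24.3 of 42.0 CPM in CON and 18.2 of 39.1 CPM in LDP, with Plvap at 0.732 and 0.333 CPM. Flt1 was higher in LDP in rats 5 and 8 and lower in the other rats, and Egfl7 was lower only in rats 3 and 7. The annotation named no endothelial cells in the 4 CON libraries at 8 weeks, against 1.73% to 3.27% of all cells in the 4 LDP libraries of that time, and 4.98% to 8.62% in CON and 2.95% to 9.54% in LDP at 2 weeks. The naming of endothelial cells thus differed between the CON and LDP libraries of rats 5 to 8. Whether those of the CON libraries lay in the disc class or among cells without a class name was not tested, nor was the part of this in the values. Cells without a class name averaged 269 CPM of Plvap over the 16 libraries. The summed level was lower in LDP by 0.53 to 2.61 in rats 1 to 4 and by 0.10 to 0.78 in rats 5 to 8. Of the 8 endothelial markers tested, Plvap, Cdh5, Emcn, Kdr and Eng were called lower and none higher, beside 5.72% and 2.08% of all genes, Eng in 3 of the 8 fits without a rat, while Flt1 (−0.92, adjusted p = 0.103), Esam (−0.41, 0.346) and Egfl7 (0.18, 0.428), all chosen after their values were seen, did not pass. In the authors' endothelial class Plvap averaged 1119 CPM over 12 libraries, against 5.98 CPM in disc cells. Among disc cells with no UMI of any endothelial marker, 199 genes were higher and 507 lower. Of the 15 leading lower genes 11 were called again, the 4 markers among the 15 being at 0 there by construction. In these cells 10 matrix proteases and 7 fibrous collagen genes were called lower, as many as in all disc cells. Several other lists had fewer lower calls, among them interferon (3 instead of 5), Wnt (1 instead of 2) and the ER and unfolded protein response (0 instead of 2). The part of endothelial RNA in the other results was not tested beyond this fit.

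**Figure D3:**
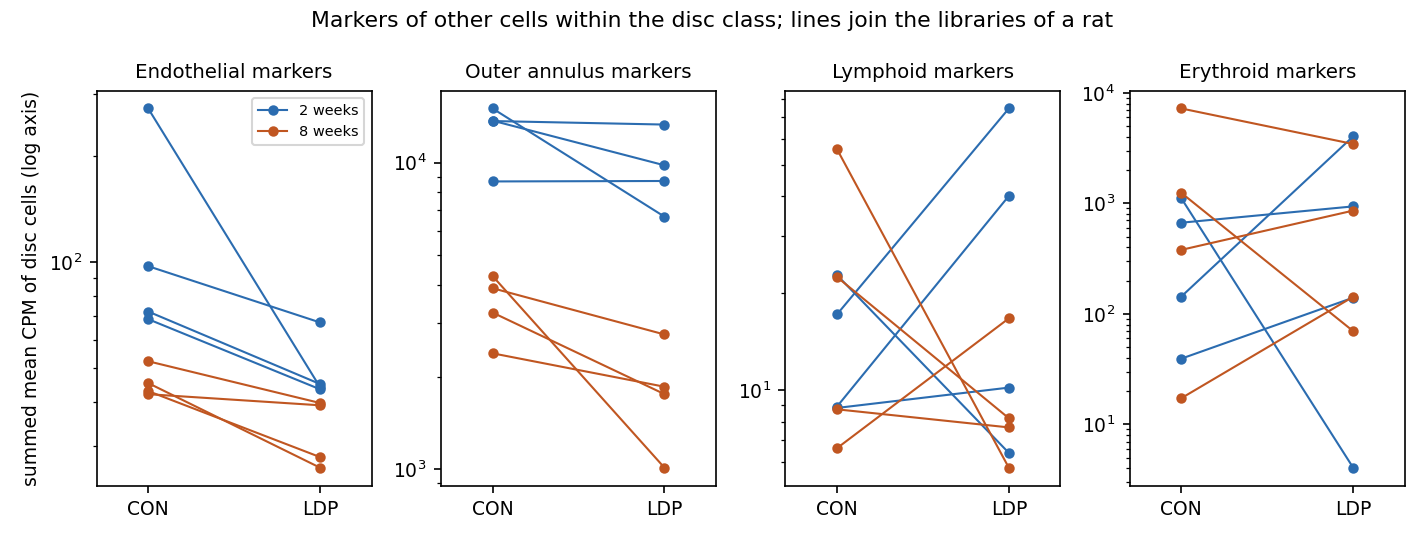
Summed mean CPM of the endothelial, outer annulus, lymphoid and erythroid marker lists within disc cells, on log axes; each line connects a rat's CON library with its LDP library (blue, 2 weeks; orange, 8 weeks). The endothelial sum falls in all 8 rats and the outer annulus sum in 7, while the lymphoid and erythroid sums go both ways.

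The other leading lower genes had varied known roles. Gas1, a growth arrest gene that also serves as a hedgehog co-receptor, ran from 24.8 to 54.9 CPM in CON (median 45.5) and from 1.62 to 37.6 CPM in LDP (median 11.8) and fell by 1.66 ± 0.26 on the log2 scale (adjusted p = 0.0122). Ntn1, the axon guidance cue netrin 1, ran from 9.01 to 22.3 CPM (median 11.4) in CON and from 1.90 to 13.1 CPM (median 4.96) in LDP and fell by 1.32 ± 0.15 (adjusted p = 0.00329). Both were lower in all 8 pairs with groups that overlapped. Fndc1, a fibronectin type III domain protein, fell by 1.48 ± 0.18, Sparcl1, a matricellular protein of the SPARC family, by 1.24 ± 0.18, and Col14a1, a collagen on the surface of fibrils, by 1.25 ± 0.22. Macc1 fell by 1.27 ± 0.18 and Slfn5, an interferon-responsive gene, by 1.43 ± 0.23. Mt3, a metallothionein, ran from 83.6 to 201 CPM in CON and from 28.3 to 96.7 CPM in LDP and fell by 1.14 ± 0.21 (adjusted p = 0.0189; without rats 3 and 7, 0.0538 and 0.0563). In none of the 15 leading lower genes were the groups apart, and 9 of the 15 kept their call without each rat in turn, 15 after TMM and 10 without rats 3 and 4.

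The 5 markers of the disc class were not called singly, and their summed level was lower in LDP in 6 of 8 pairs (−0.15 on the log2 scale, exact sign-flip p = 0.0391; adjusted over 13 lists, 0.127). Acan, the large proteoglycan of the disc, ran from 1705 to 3381 CPM in CON (median 2542) and from 1953 to 4107 CPM in LDP (median 2743). Its change was 0.19 ± 0.09 (adjusted p = 0.203), higher in LDP in every rat but rat 4 (−0.32). Col2a1, type II collagen, ran from 1580 to 14680 CPM in CON and from 602 to 13460 CPM in LDP, with a change of −0.47 ± 0.24 (adjusted p = 0.208). Both ranges overlapped widely, and a change that misses the threshold does not show equal levels. Sox9, the chondrogenic transcription factor, changed by −0.33 ± 0.10 (7 of 8 pairs lower, adjusted p = 0.0687), Fmod (fibromodulin) by −0.16 ± 0.09 and Comp (cartilage oligomeric matrix protein) by −0.16 ± 0.09. None of 7 cartilage collagens, 16 genes of chondroitin sulfate synthesis or 16 hypertrophy and mineralization genes was called in either direction, and their medians were −0.03, −0.22 and −0.01, with 2.08% of all genes called higher and 5.72% lower. Of 9 genes of aggrecan, hyaluronan and link proteins 2 were lower and none higher, beside the same shares. Cemip, a hyaluronan-degrading protein named after its values were seen, fell by 0.63 ± 0.15 (adjusted p = 0.0373) in 7 of 8 pairs, a call lost after TMM and without 6 of the rats. Vcan, the proteoglycan versican, was lower in all 8 pairs: 299 to 903 CPM in CON (median 761), 186 to 693 CPM in LDP (median 397), and a fall of 0.71 ± 0.12 on the log2 scale (adjusted p = 0.0150).

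Of 14 other cartilage matrix genes 3 were higher and 1 lower, beside 2.08% and 5.72% of all genes, with a median of −0.03. Scrg1, a small secreted protein of chondrocytes, ran from 373 to 696 CPM in CON (median 543) and from 653 to 1560 CPM in LDP (median 978) and rose by 0.83 ± 0.11 (adjusted p = 0.00712), a call that held without each rat in turn. Cnmd, the anti-angiogenic chondromodulin, rose by 0.52 ± 0.11 (adjusted p = 0.0267) and Snorc, a chondrocyte transmembrane proteoglycan, by 0.30 ± 0.07 (adjusted p = 0.0356), both in all 8 pairs. Cytl1, a cytokine-like protein of cartilage, fell by 0.65 ± 0.15 (adjusted p = 0.0356), a call lost after TMM. Without each rat in turn the calls of Cnmd, Snorc and Cytl1 held in 4, 1 and 2 of the 8 fits (highest adjusted p 0.0746, 0.0951 and 0.0757).

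Of 28 genes of fibrous collagens and their processing, 7 were called lower and 2 higher, beside 5.72% and 2.08% of all genes, with a median of −0.40 beside −0.12, and after TMM 4 were lower and 3 higher. Col14a1, Col15a1 and Adamts2, the procollagen N-proteinase, were lower in all 8 pairs (−1.25, −0.47 and −1.01), the call of Col15a1 being lost after TMM, and Col3a1, Col5a3 and Col12a1 (−0.89, −1.13 and −1.02, picked after their values were seen) were lower in 7, 6 and 7 pairs, Col3a1 losing its call after TMM. Without each rat in turn the calls of Col14a1, Adamts2 and Col5a3 held in 8 of 8 fits, of Col15a1 and Col12a1 in 4 and of Col3a1 in 1. The 2 higher members both modify collagen: Lox, which crosslinks it, rose by 0.36 ± 0.08 (adjusted p = 0.0282, called in 3 of the 8 fits without a rat), and P4ha2, a prolyl hydroxylase subunit at 479 to 622 CPM in CON and 685 to 964 CPM in LDP without overlap, by 0.54 ± 0.09 (adjusted p = 0.0126). Among 16 tendon, ligament and elastic fiber genes 4 were lower and none higher (median −0.55), beside the same shares of all genes, of which only Fbln1 (fibulin 1, −0.71 ± 0.12, adjusted p = 0.0142) was lower in all 8 pairs. The 6 outer annulus markers had a median change of −1.03: Igfbp5 (−1.14), Lum (−1.10) and Myoc (−1.23) were called, each lower in 7 of 8 pairs, Lum losing its call after TMM and all 3 without at least 1 rat (highest adjusted p 0.0726, 0.0827 and 0.0832), and Igfbp6 (−0.97, adjusted p = 0.0522), Col1a1 (−0.64, 0.0866) and Fibin (−0.19, 0.231) did not pass. Their summed level ran from 2388 to 15016.5 CPM in CON (median 6474) and from 1012 to 13306.5 CPM in LDP (median 4707) and was lower in 7 of 8 pairs (−0.69 on the log2 scale, two-sided exact sign-flip test, p = 0.0156; adjusted over 13 lists, 0.102), and fewer OAF cells and less RNA per cell cannot be told apart in these means.

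The subclusters gave a partial view of this at 2 weeks, where the deposited annotation numbers 3 of them in each group, made with CON and LDP clustered apart. Subcluster 3 carried the outer annulus genes: Col1a1 averaged 55518 CPM there in CON and 55359 CPM in LDP, Lum 1548 and 1170 CPM, Igfbp5 7061 and 3827 CPM and Myoc 896 and 565 CPM (n = 4 libraries each, without a test). Its share of disc cells was 14.6%, 13.4%, 9.28% and 10.1% in the CON libraries of rats 1 to 4, and 6.29%, 16.4%, 9.27% and 14.98% in their LDP libraries, so that it went both ways. In subclusters 1 and 2 the OAF marker Igfbp5 was compared without a test: it averaged 319 ± 110 and 135 ± 61.2 CPM (SD, n = 4) in CON and LDP of subcluster 1, and 540 ± 168 and 141 ± 19.0 CPM in subcluster 2. With subclusters given equal weight at 2 weeks, 188 genes were higher and 519 lower. A subcluster number in CON need not hold the same kind of cell as in LDP, because each group was clustered by itself.

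Of 22 matrix proteases, 10 were called lower and none higher, beside 5.72% and 2.08% of all genes, with a median of −0.40. At the share of all genes, under 1 higher call falls to a list of this size. Adamts5, the main aggrecan-cleaving enzyme in mice, was a low gene at 4.66 to 8.92 CPM in CON (median 6.41) and 2.08 to 6.30 CPM in LDP (median 3.29), and fell by 0.69 ± 0.12 on the log2 scale (adjusted p = 0.0150). Htra4, a serine protease, ran from 8.63 to 33.4 CPM in CON (median 16.6) and from 1.84 to 12.5 CPM in LDP (median 6.92) and fell by 1.22 ± 0.16 (adjusted p = 0.00696). Both were lower in all 8 pairs and kept their calls without each rat in turn and after TMM. Fap, the fibroblast activation protease, fell by 1.23 ± 0.28, Htra1, the most abundant of them at 1382 to 3205 CPM over all libraries, by 0.41 ± 0.08, and Htra3 by 0.38 ± 0.09. The calls of Htra1 and Htra3 were lost after TMM. Without each rat in turn the calls of Fap, Htra1 and Htra3 held in 2, 4 and 1 of the 8 fits (highest adjusted p 0.0733, 0.0646 and 0.0901). Mmp2 (−0.95), Adamts1 (−1.09) and Ctsk (−0.64), named after their values were seen, were lower in 7 of 8 pairs, Ctsk losing its call after TMM and all 3 without at least 1 rat (highest adjusted p 0.0811, 0.0749 and 0.0755). After TMM 6 of the 22 were still called lower. The outer annulus markers moved with this list (summed level −0.69, lower in 7 of 8 pairs), and their part in it was not tested. Of 8 protease inhibitors 2 were lower and none higher, among them Reck, a membrane inhibitor of matrix metalloproteinases, which fell by 0.70 ± 0.14 (adjusted p = 0.0252; called in 3 of the 8 fits without a rat).

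Of 27 genes of the BMP and activin pathway 2 were higher and 4 lower, beside 2.08% and 5.72% of all genes. Both higher members are secreted BMP antagonists: Grem1, given above, and Chrdl2 (chordin-like 2). Chrdl2 ran from 3.49 to 23.0 CPM in CON (median 7.38) and from 6.27 to 41.6 CPM in LDP (median 17.4) and rose by 0.90 ± 0.12 (adjusted p = 0.00667), with groups that overlapped. The 4 lower members included Bmpr2, the type II BMP receptor (−0.47 ± 0.12, adjusted p = 0.0456), and the activin subunit Inhbb (−0.52 ± 0.12, adjusted p = 0.0356), and the list's median was −0.28. Frzb, a secreted Wnt antagonist typical of cartilage, ran from 320 to 606 CPM in CON (median 402) and from 434 to 813 CPM in LDP (median 622) and rose by 0.54 ± 0.11 (adjusted p = 0.0232). Of 22 Wnt pathway genes 1 was higher and 2 lower, close to the shares of all genes, and the lower ones were Dkk3 (−0.61 ± 0.11) and the pathway's transcription factor Tcf7l2 (−0.35 ± 0.09, lost after TMM). Bmpr2, Inhbb, Frzb, Dkk3 and Tcf7l2 each lost the call without at least 1 rat (highest adjusted p 0.109, 0.0862, 0.0637, 0.0510 and 0.109), whereas Grem1 and Chrdl2 did not.

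The members called in the TGF-beta, FGF and IGF lists were lower, beside 5.72% of all genes called lower and 2.08% called higher, a share that gives under 1 higher call in lists of this size. Tgfb3, a ligand, ran from 7.11 to 18.4 CPM in CON (median 13.8) and from 4.34 to 14.0 CPM in LDP (median 7.75) and fell by 0.62 ± 0.10 on the log2 scale (adjusted p = 0.0131). It was among 5 lower genes of 16 in the TGF-beta pathway (median −0.37), 3 of which remained called after TMM, with the latent TGF-beta binding proteins Ltbp3 (−0.42, lost after TMM) and Ltbp4 (−0.95, 7 of 8 pairs). Fgf7, a growth factor acting on epithelia, fell by 0.98 ± 0.10 (adjusted p = 0.00293), from 1.75 to 5.52 CPM in CON to between 0.305 and 3.05 CPM in LDP. Fgf9 fell by 0.61 ± 0.11, the receptor Fgfr2 by 0.49 ± 0.12 and the feedback inhibitor Spry4 by 0.58 ± 0.13, the last pair losing their calls after TMM, and 5 of 15 FGF pathway genes were called lower in total, 2 of them after TMM (median −0.49). The IGF list had the lowest median among the pathway and matrix lists, −0.73, with 6 of 14 lower: the insulin receptor substrates Irs1 and Irs2 in all 8 pairs (−0.71 ± 0.12 and −0.76 ± 0.12, adjusted p = 0.0151 and 0.0117), and Igfbp5, Igfbp4 and Igf1 in 7 of 8. Igfbp5 and Igfbp6 of this list are also outer annulus markers, whose summed level was lower in 7 of 8 pairs (−0.69), and their part in the list's median was not tested. Ltbp4, Igfbp4, Igfbp5, Igfbp6 and Igf1 were named after their values were seen. Irs1, Irs2, Tgfb3, Ltbp4 and Fgf7 kept their calls without each rat in turn, whereas the call held in 6 of 8 such fits for Fgf9, 4 for Igfbp5, 3 for Spry4, 2 for Ltbp3 and Igfbp4 and 1 for Fgfr2 and Igf1, and the calls of Igf1 and Igfbp4 were lost after TMM. Of 6 CCN family members tested 2 were lower, including Nov (CCN3), which ran from 108 to 250 CPM in CON and from 55.4 to 179 CPM in LDP and fell by 0.96 ± 0.18 (adjusted p = 0.0207; without rats 3, 6 and 7, 0.0589, 0.0609 and 0.0521).

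**Figure D4:**
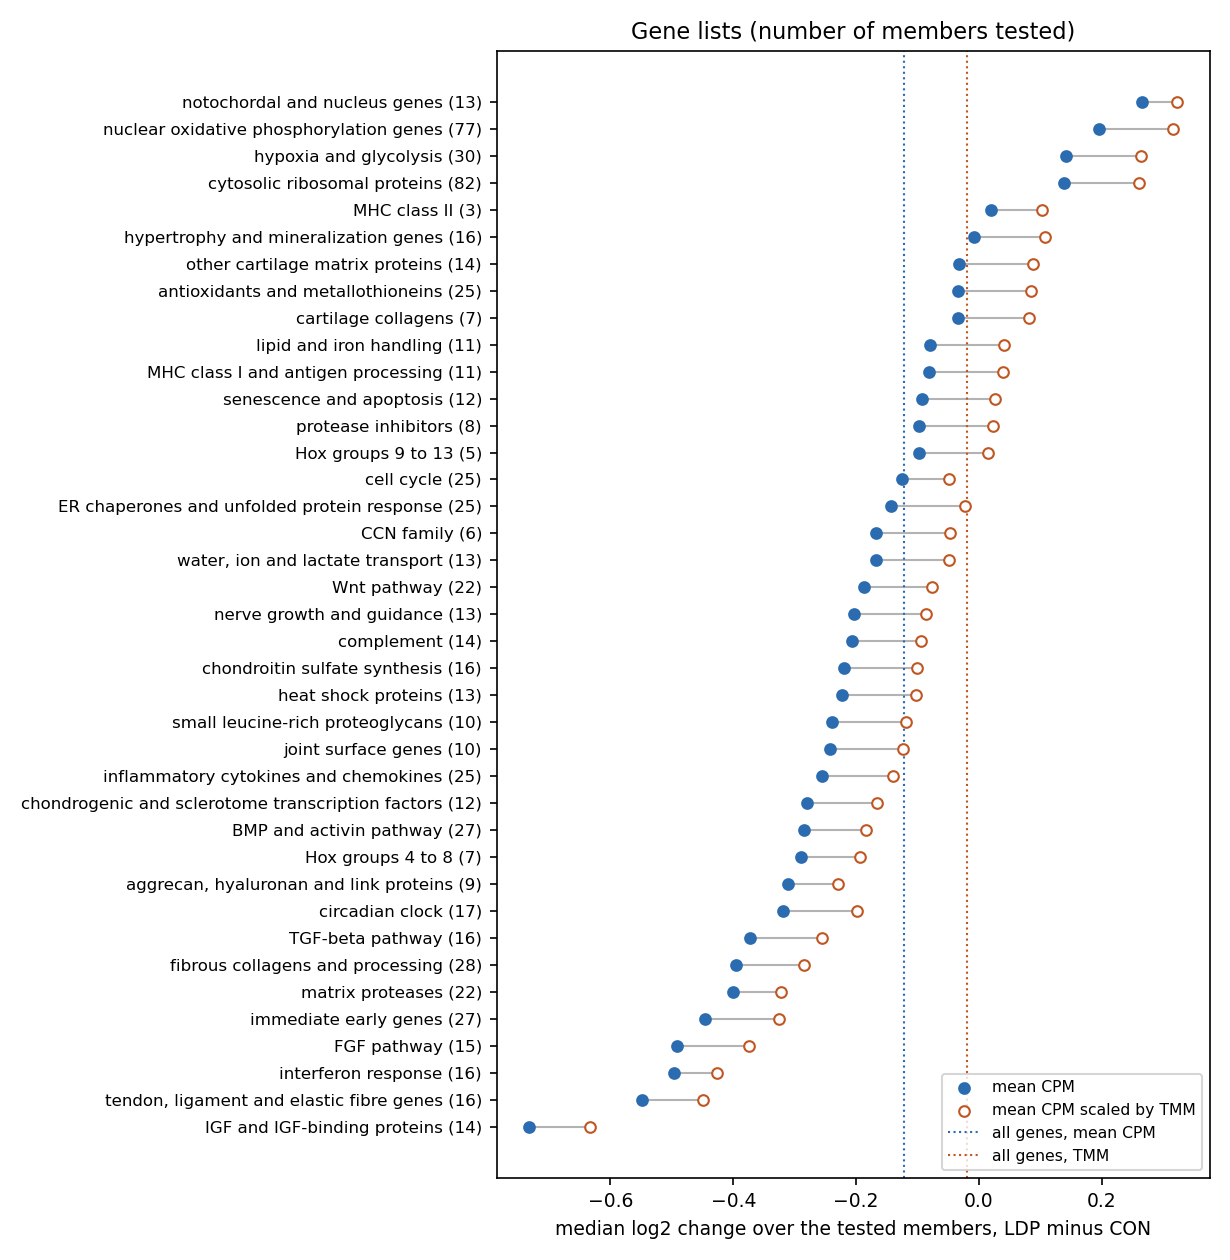
Median log2 change, LDP minus CON, over the tested members of each gene list (number of members tested in parentheses), from mean CPM (filled points) and after TMM scaling (open points); dotted lines give the median of all genes tested under each. The notochordal and nucleus, oxidative phosphorylation, hypoxia and ribosomal lists lie to the right and the IGF, tendon and interferon lists to the left under both scalings.

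Ngfr, a receptor of neurotrophins, ran from 7.53 to 22.3 CPM in CON and from 6.22 to 30.3 CPM in LDP, a change of −0.15 ± 0.14 (adjusted p = 0.478). Of 13 genes of axon growth and guidance, Ntn1 and the semaphorin Sema3d (−0.49 ± 0.10, adjusted p = 0.0267) were lower, beside 5.72% of all genes, Ntn1 in all 8 fits without a rat and Sema3d in 3.

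Of 30 genes of hypoxia and glycolysis 4 were higher and 1 lower, beside 2.08% and 5.72% of all genes. In all 8 pairs 6 were higher, beside 3.59% of all genes, and the median was 0.14 beside −0.12. Pdk1, a kinase that inhibits pyruvate dehydrogenase, ran from 15.7 to 24.2 CPM in CON (median 18.5) and from 17.9 to 41.6 CPM in LDP (median 31.1) and rose by 0.54 ± 0.11 (adjusted p = 0.0252). Gapdh, a glycolytic enzyme whose near-identical copies in the genome make its counts uncertain, rose by 0.50 ± 0.11 (adjusted p = 0.0267). Car9, a carbonic anhydrase induced at low oxygen, ran from 22.9 to 35.8 CPM in CON and from 27.1 to 80.9 CPM in LDP and rose by 0.69 ± 0.19 (adjusted p = 0.0482), and Aldoa, an aldolase, rose by 0.28 ± 0.07 (adjusted p = 0.0473), both lost after TMM. The lower gene was Pfkfb3, a regulator of glycolytic flux, at −0.76 ± 0.17 (adjusted p = 0.0283). Each of these 5 lost its call without at least 1 rat, Pdk1 without rats 1 and 7 (adjusted p = 0.0627 and 0.0659), Pfkfb3 without 4, Gapdh without 6, Car9 without 7 and Aldoa without any one of the 8. Outside the list, the hypoxia-inducible mitochondrial proteins Fam162a and Higd1a rose by 0.71 ± 0.09 and 0.65 ± 0.08 (adjusted p = 0.00430 and 0.00543), Fam162a from 151 to 207 CPM in CON to between 216 and 403 CPM in LDP without overlap; these 2 were chosen after their values were seen.

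The hypoxia response is known to act through a short core motif, of which only the form ACGTG, which reads CACGT on the other strand, was searched. Promoters of 300 bases, from 250 before to 50 after the gene start (RefSeq, GRCr8, not the build of the counts), could be matched for 25 of the 30 list genes tested, and 17 of these (68%) held the motif on either strand, as did 27.3% of the 8342 tested genes with a promoter. Because the list was built from genes of hypoxia and glycolysis, this excess describes the list and not LDP against CON. All 5 called members held the motif, among them Pfkfb3, which was lower. Of the higher ones 3 are shown 5′ to 3′ on the strand of the gene, the motif in capitals, as examples of its called members: Car9 (chr5:62558774-62559073, plus strand), Pdk1 (chr3:77113264-77113563, plus strand) and Gapdh (chr4:159652418-159652717, minus strand).
Car9: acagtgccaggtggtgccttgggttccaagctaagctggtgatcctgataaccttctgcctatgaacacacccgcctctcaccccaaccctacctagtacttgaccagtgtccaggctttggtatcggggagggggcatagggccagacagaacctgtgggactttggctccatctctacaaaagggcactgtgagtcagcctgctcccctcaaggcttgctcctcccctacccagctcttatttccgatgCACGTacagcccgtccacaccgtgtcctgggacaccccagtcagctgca
Pdk1: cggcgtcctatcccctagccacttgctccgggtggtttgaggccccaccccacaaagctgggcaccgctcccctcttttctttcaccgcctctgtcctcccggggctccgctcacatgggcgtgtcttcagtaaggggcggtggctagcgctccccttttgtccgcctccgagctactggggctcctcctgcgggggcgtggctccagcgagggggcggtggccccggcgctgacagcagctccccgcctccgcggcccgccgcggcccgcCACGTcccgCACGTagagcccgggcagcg
Gapdh: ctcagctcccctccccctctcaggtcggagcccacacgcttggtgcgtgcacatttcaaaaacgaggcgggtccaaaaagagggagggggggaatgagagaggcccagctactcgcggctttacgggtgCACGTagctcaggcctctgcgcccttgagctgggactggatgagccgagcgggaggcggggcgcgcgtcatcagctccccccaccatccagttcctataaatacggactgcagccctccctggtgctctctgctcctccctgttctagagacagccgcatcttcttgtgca
A match of these letters is a description of the window and shows no binding.

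Of 77 nuclear genes of oxidative phosphorylation 8 were called higher and none lower, beside 2.08% and 5.72% of all genes. In all 8 pairs 21 were higher and none lower, beside 3.59% and 8.3% of all genes, and their median was 0.20. Cox4i2, the cytochrome c oxidase subunit form favored at low oxygen, ran from 300 to 534 CPM in CON (median 373) and from 475 to 1098 CPM in LDP (median 723) and rose by 0.79 ± 0.10 (adjusted p = 0.00610). Together with Cox6a2, given above, it is a tissue-specific form and not part of the common set of subunits, of which Ndufa3 of complex I rose by 0.55 ± 0.09 (adjusted p = 0.0131); Cox4i2 and Ndufa3 were named after their values were seen. All 3 kept their calls without each rat in turn and after TMM. Of 82 ribosomal protein genes 5 were higher and none lower, beside the same shares of all genes, with a median of 0.14, Rps27 rising by 0.34 ± 0.06 (adjusted p = 0.0194) and Rpl41 by 0.30 ± 0.07 (adjusted p = 0.0368, lost after TMM), and both have near-identical copies that make their counts uncertain. The ribosomal share of UMIs per cell, given above, moved with them, and its part in these changes was not tested. Rps27 and Rpl41, named after their values were seen, were called in 5 and 0 of the 8 fits without a rat. The share of mitochondrial UMIs moved the other way, by −0.366 points (higher in 2 of 8 pairs, exact sign-flip p = 0.0547; adjusted over 5 library measures, 0.137).

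Immune and inflammatory genes were followed in 5 lists, beside shares of 2.08% higher and 5.72% lower among all genes. Of 14 complement genes 6 were lower and none higher (median −0.21, beside −0.12 for all genes). In all 8 pairs 4 of them were lower, beside 4.05% of all genes called lower with all 8 pairs lower. Colec12, a scavenger receptor that binds complement activators, ran from 72.2 to 128 CPM in CON (median 97.8) and from 36.2 to 87.8 CPM in LDP (median 59.9) and fell by 0.71 ± 0.12 on the log2 scale (adjusted p = 0.0132). Cd55, a membrane inhibitor, fell by 0.80 ± 0.16 and C7, of the lytic complex, by 0.82 ± 0.17, each losing its call without at least 1 rat (highest adjusted p 0.0630 and 0.0727), and C1r and C1s (−0.66 and −0.86, named after their values were seen) lost theirs after TMM and without 7 of the rats. Of 25 inflammatory cytokine and chemokine genes 2 were lower and 1 higher: Csf1, the macrophage growth factor, fell by 0.61 ± 0.14 (lost after TMM), and Lcn2 (lipocalin 2, named after its values were seen) rose by 0.96 ± 0.22 in 7 of 8 pairs (adjusted p = 0.0339), each called in 2 of the 8 fits without a rat. The interferon list had 5 lower of 16 and none higher (median −0.50), among them Irf1 (−0.77 ± 0.17), Ifih1 (−0.66 ± 0.13) and Ifit2 (−0.74 ± 0.19, lost after TMM). Of the 16, 2 were called lower after TMM and 3 among disc cells with no UMI of any endothelial marker. The endothelial sum was lower in LDP in 8 of 8 pairs, and its part in this list was not tested beyond that subset of cells. Without each rat in turn Ifih1 was called in 4, Irf1 in 3 and Ifit2 in 0 of the 8 fits. None of 11 MHC class I genes, including B2m at −0.30 ± 0.16 (adjusted p = 0.229), and none of 3 MHC class II genes passed. Marker genes of lymphoid and myeloid cells within the disc class summed to 6.61 to 55.8 and 24.4 to 89.4 CPM in CON and 5.76 to 74.6 and 46.6 to 103 CPM in LDP, with differences of −3.07 to 2.06 and −0.38 to 1.02 on the log2 scale in single rats and no one direction (exact sign-flip p = 0.938 and 0.859), and none of their 5 and 6 tested members was called. Most of the myeloid sum was Cd14, at 17.8 to 63.1 CPM in CON and 34.4 to 92.7 CPM in LDP. Lyz2 averaged 3.47 CPM in disc cells, against 5202 CPM in the myeloid class. How much of the sum came from myeloid cells was not tested.

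The difference between 8 and 2 weeks in the LDP effect was not detected in the main fit, with 4 rats at each time. No gene passed for it there (limma, 0% called, smallest adjusted p = 0.109), with 186 genes at an unadjusted p under 0.05. Other settings called none with edgeR (169 unadjusted), 12 genes with DESeq2 (207 unadjusted), 31 with subclusters of equal weight at 2 weeks and 13 without rat 3. Taken alone, the 2 times gave 15 higher and 5 lower genes at 2 weeks and 13 higher and 17 lower at 8 weeks. Hoxd10 rose by 2.17 at 2 and by 2.76 at 8 weeks, and Hoxc8 fell by 0.94 and 1.31 on the log2 scale. Plvap fell by 2.39 and 1.36, Gas1 by 1.20 and 2.11 and Fndc1 by 0.88 and 2.09, without a difference that passed.

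**Figure D5:**
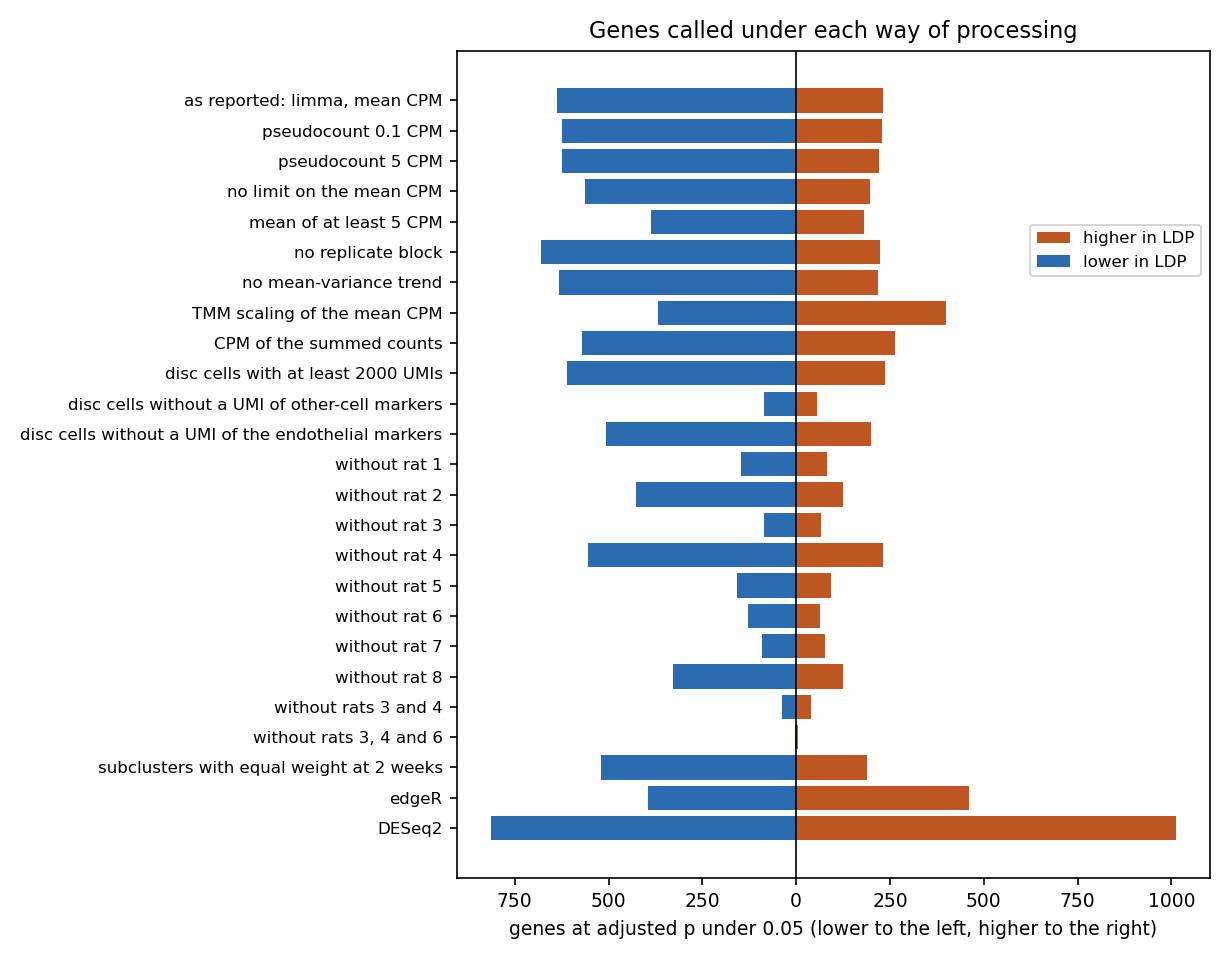
Number of genes called lower (left, blue) and higher (right, orange) in LDP disc cells at an adjusted p under 0.05 under each way of processing. The reported analysis called 232 higher and 638 lower, TMM, edgeR and DESeq2 shift the split toward higher genes, and leaving out any rat other than rat 4 lowers both counts.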

How the data were processed

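Single-cell 3′ libraries (10x Genomics v3.1) of rat lumbar IVDs were processed by the authors in Partek Flow with the rn6 build, per the submitters' processing notes; the aligner is not given in the sources used here. The authors kept cells with under 10% mitochondrial reads, 500 to 3000 genes and at most 30000 UMIs, clustered each of the 4 groups separately and deposited a class name for each cell; how doublets were treated is not given in the sources used here, and no doublet caller was run. The deposited values were log2(CPM + 1) per gene and cell. The deposited total count per cell was an expected count that need not be whole, and CPM times that total gave a whole number within 0.02 for 99.4% of values. The deposited percent columns gave each cell's mitochondrial and ribosomal counts, and the deposited number of genes was a count per cell.

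Values were turned back into CPM and averaged over the disc cells of each library, with no count model in the main analysis. Of 13596 genes listed in all 4 groups, 11150 with a mean of at least 1 CPM were tested with limma 3.58.1 (R 4.3.3) on log2(mean CPM + 1), with the rat as a block and the mean-variance trend. CON and LDP libraries were paired by the number in their titles, taken as the rat, because the paper took CON and LDP discs from each rat. Correlations of their deviations from the group means ran from −0.185 to 0.465. Genes were called at a Benjamini-Hochberg adjusted p under 0.05. Summed marker levels and library measures were compared by two-sided exact sign-flip permutation tests over the 8 rats, whose smallest p is 0.0078125. The 15 genes per direction with the largest change among those called and of one sign in all 8 pairs were named, together with members of the gene lists that met this, the most abundant members of other lists, Ngfr and markers of cell types; a few genes that this names are not reported here. Members and gene lists were chosen with earlier results of these data known. Alternatives included edgeR 4.0.16 and DESeq2 1.42.0 on summed and rounded counts. The fits were also run on simulated summed counts of libraries, not on means of CPM per cell. Genes of low or very high CPM were not among those changed in the simulation, and its outcome is not used here. Disc cells of a library summed to between 1.31e+07 and 7.97e+07 UMIs. Puncture and lumbar level cannot be told apart by any of these fits.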

Additional observations from a re-analysis of the deposited data

Results flagged for a closer look

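In 18 of 362 groups of 4 rats examined (4.97%, where chance gives about 1 in 20), 1 rat stood apart from the other 3 of its time by Dixon's criterion. All values here are LDP minus CON differences on the log2 scale unless another is named.

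At 2 weeks, Hoxd9 differed by 0.57 in rat 1, against 0.92 to 0.99 in the other 3 rats. Cd55, the complement inhibitor, differed by −1.80 in rat 4, against −0.45 to −0.32. Igfbp5, an OAF marker, differed by 0.074 in rat 2, the only rat in which it was not lower, against −1.62 to −1.40. Lcn2 differed by 0.15 in rat 1, against 0.99 to 1.12, and Fabp5 by −0.29 in rat 4, against 0.10 to 0.18.

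At 8 weeks, Hoxc8 differed by −0.998 in rat 8, against −1.42 to −1.40. Col14a1 and Col12a1 differed by −3.20 and −2.79 in rat 5, against −1.24 to −0.91 and −1.22 to −1.04. C7 differed by −1.33 in rat 5, against −0.73 to −0.65, and Papss2, a sulfate donor enzyme, by −1.04 in rat 5, against −0.05 to 0.10. Krtap17-1 differed by 0.0275 in rat 6, against 1.16 to 1.31, and Macc1 by −0.58 in rat 6, against −1.36 to −1.23. Bcl2l11 differed by −0.95 in rat 7, against −0.44 to −0.35.

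Among the summed marker levels in disc cells, as log2 of the summed CPM plus 1, the CON library of rat 1 was high for granulocyte markers (7.57, against 1.19 to 1.66) and for osteoblast markers (9.95, against 7.73 to 8.07). The LDP library of rat 2 was high for endothelial markers (6.09, against 5.47 to 5.52). The CON library of rat 7 was high for pericyte markers (7.64, against 7.15 to 7.22) and for adipocyte markers (6.35, against 5.12 to 5.24).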

How the results depend on the processing

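Of the 145 genes examined, 115 kept direction and side of the threshold after TMM, 116 with edgeR, 136 with DESeq2, 132 of 140 in disc cells without endothelial markers, 69 of 139 in cells without other-cell markers, 61 without rats 3 and 4, 27 without rats 3, 4 and 6 and 126 without the replicate block, where 223 genes were higher and 681 lower. The cause of the moves below was not tested. Higher genes numbered 399 after TMM, 460 with edgeR, 1011 with DESeq2, 55 in cells without other-cell markers (6 pairs), 40 without rats 3 and 4 and 4 without rats 3, 4 and 6; lower genes numbered 368, 395 and, in the last 3 settings, 87, 39 and 2, 388 above a mean of 5 CPM and 812 with DESeq2. Genes higher in all pairs numbered 751 after TMM, 893 with DESeq2 scaling and 683 without rats 3, 4 and 6, and those lower in all pairs 612 with DESeq2 scaling. For edgeR the same TMM-scaled values gave the signs of the pairs, so its 751 is not a separate result. The time difference was called in 2 genes at a pseudocount of 0.1, 3 without the block, 1 in cells of at least 2000 UMIs, 4 without endothelial-marker cells, 12 without rats 3 and 4, 6 without rats 3, 4 and 6, 31 with subclusters of equal weight and 12 with DESeq2. In cells without other-cell markers the signs of Hoxb4 (0.14), Hoxd8 (−0.066), Hoxb9 (0.10), Hoxc10 (0.069), Ngfr (0.044) and Col2a1 (0.019) turned, as did Hoxc10 after TMM (0.015), with edgeR (0.013) and DESeq2 (0.027), and Ngfr without rats 3 and 4 (0.038) and with subclusters of equal weight (0.11); none of these genes was called.

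Without each rat in turn, 64 to 232 genes were higher and 85 to 555 lower, 431 to 544 were higher and 995 to 1541 lower in all pairs, and the time difference was called in 0 to 13. The library measures ran from −6.18 to −1.53 points for the disc share, 701 to 1516 for median UMIs, 53.9 to 182 for median genes, −0.428 to −0.282 for the mitochondrial and 1.25 to 1.88 for the ribosomal percent. The summed markers ran from −0.40 to 0.33 for lymphoid, −0.095 to 0.11 for myeloid, −0.93 to 0.86 for erythroid, 0.75 to 2.55 for granulocyte, −0.89 to −0.53 for endothelial, −0.0065 to 0.16 for pericyte, 0.16 to 0.24 for Schwann cell, 0.28 to 0.58 for skeletal muscle, 0.31 to 0.82 for osteoblast, 0.15 to 0.50 for adipocyte, −0.18 to −0.12 for disc, −0.16 to −0.0085 for NP and −0.79 to −0.49 for OAF markers.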

Other observations

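Of 27 immediate early genes 5 were called lower and none higher (median −0.45), 3 of them after TMM, beside 5.72% of all genes called lower and 2.08% higher. Klf6 ran from 39.2 to 146 CPM in CON (median 64.3) and from 19.5 to 51.2 CPM in LDP (median 39.7) and fell by 0.75 ± 0.12 on the log2 scale (limma, adjusted p = 0.0131), a call kept without each rat in turn. Socs3, a feedback inhibitor of cytokine signaling, fell by 0.78 ± 0.16 and Egr3 by 0.50 ± 0.11, both losing their calls without at least 1 rat. Of 17 circadian clock genes 4 were lower and none higher (median −0.32), among them Cry2 (−0.64 ± 0.13) and Nr1d2 (−0.53 ± 0.13). In all 8 pairs 7 were lower, beside 8.3% of all genes. Npas2 and Rora lost their calls after TMM, and all 4 without at least 1 rat.

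Gsn, the actin-severing protein gelsolin, ran from 1246 to 2165 CPM in CON (median 1715) and from 617 to 1342 CPM in LDP (median 978) and fell by 0.83 ± 0.07 (adjusted p = 0.00148). Gsn and the next 2 genes were chosen after their values were seen. Cpe, carboxypeptidase E, ran from 166 to 428 CPM in CON and from 360 to 618 CPM in LDP and rose by 0.72 ± 0.09 (adjusted p = 0.00430). Sqle, an enzyme of cholesterol synthesis, ran from 56.2 to 86.8 CPM in CON and from 92.8 to 156 CPM in LDP without overlap and rose by 0.65 ± 0.11 (adjusted p = 0.0151; without rat 6, 0.0501).

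Of 25 antioxidants and metallothioneins 2 were higher, Gpx1 (0.42 ± 0.10) and Prdx1 (0.34 ± 0.09), and 4 lower, including Mt3 and Gsr (−0.49 ± 0.12), beside 2.08% and 5.72% of all genes. Hspb1, a small heat shock protein, rose by 0.33 ± 0.06 as the only one of 13 heat shock genes called. Without each rat in turn Hspb1 was called in 4, Gpx1 in 2, Gsr in 1 and Prdx1 in 0 of 8 fits. Of 25 genes of the ER and unfolded protein response 2 were lower and none was called after TMM, and of 25 cell cycle genes 1, Cdkn1b, was lower and lost its call after TMM, shares close to the 5.72% of all genes called lower.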
